A study of Mus musculus with 48 samples.

Results

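Fabp6, Slc10a2, Fgf15, Slc51a, Slc51b, Nr0b2 and Nr1h4 belong to the uptake, transport and sensing of bile acids in the ileum and to the response to that sensing. Their mRNA levels were followed along the intestine and in the liver 9 days after Roux-en-Y gastric bypass (RYGB) or sham surgery. The 7 genes were taken by symbol, 1 line per Ensembl ID, from the tables of 4 tissues, which together held 13354 genes. All 7 had a line in the ileal table, 5 in the jejunal table (no line for Fabp6 and Fgf15), 4 in the duodenal table (no line for Slc10a2 in addition) and 4 in the liver table (Slc10a2, Slc51b, Nr0b2 and Nr1h4). A gene with no line has no value here, and the listed genes all had 1 CPM or more (CPM are counts scaled to the total of the library) in no fewer libraries than the smaller surgery group holds.

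Bile acids are made in hepatocytes, released into the gut with bile and recovered in the ileum. There the apical sodium-dependent transporter (Slc10a2) brings them into the enterocyte, the ileal bile acid binding protein (Fabp6) carries them through the cytosol, and the transporter of the basolateral membrane, a dimer of the products of Slc51a and Slc51b (OST alpha and OST beta), passes them to the portal blood. Inside the cell bile acids activate the nuclear receptor FXR (Nr1h4), whose known targets include Fabp6, Slc51a, Slc51b, Nr0b2 (SHP, a receptor without a DNA-binding domain that represses other nuclear receptors) and Fgf15, a hormone that travels to the liver and lowers bile acid synthesis.

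All mice were diet-induced obese C57Bl6 males that had eaten high fat diet. They had RYGB, in which food is led past most of the stomach and the upper small intestine, or sham surgery, and both groups then received a liquid elemental diet for 9 days, to which the labels add a return to high fat diet. The mice were fasted overnight before they were killed. RYGB and sham had 3 and 4 libraries in the duodenum, 3 and 4 in the jejunum, 5 and 5 in the ileum, and 4 and 4 in the liver, 32 of the 48 libraries of the series. The intestinal samples were villi, scraped off after a short time in EDTA. The labels do not give the position along the ileum or the limb of the bypass from which a sample came, and nothing in them says whether libraries with the same number came from the same mouse, so p-values measure the spread between these libraries. The depth of the libraries is unknown. The 10 most abundant genes took 12.1% to 20.4% of the CPM.

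The library names carry a lane code. In the ileum all RYGB libraries carried lane code 1 and the sham libraries 2 or 3, so that lane and surgery cannot be told apart there. In the jejunum only RYGB replicate 2 had another lane code (2) than the rest (1), all duodenal libraries had code 2, and in the liver codes 2, 3 and 4 occurred in both groups.

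Promoters are shown for 3 of the genes, because Fabp6 held the only matches to the FXR response element, Slc10a2 held a match to the HNF1 motif, and Nr0b2 changed in both the jejunum and the ileum. RefSeq start sites (GRCm38.p6) were found for 6 of the 7 genes, and Fgf15 was not among them. The bases lie before the start site, are written in the direction of the gene, and stop for Slc10a2 where the GENCODE M21 gene begins. Capitals mark matches to the inverted repeat IR-1 (AGGTCANTGACCT, at most 2 mismatches) or to the HNF1 motif (GTTAATNATTAAC, at most 2 mismatches), read on both strands.
Fabp6, chr11:43601563-43601812, minus strand: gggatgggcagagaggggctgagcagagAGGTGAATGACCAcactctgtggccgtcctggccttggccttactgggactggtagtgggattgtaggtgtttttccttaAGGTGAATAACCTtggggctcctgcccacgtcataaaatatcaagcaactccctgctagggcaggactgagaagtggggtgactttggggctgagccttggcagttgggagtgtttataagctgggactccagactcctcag
Slc10a2, chr8:5105352-5105537, minus strand: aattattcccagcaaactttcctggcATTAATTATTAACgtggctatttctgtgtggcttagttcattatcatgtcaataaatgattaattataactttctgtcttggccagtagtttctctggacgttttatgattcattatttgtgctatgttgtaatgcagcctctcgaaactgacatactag
Nr0b2, chr4:133553126-133553375, plus strand: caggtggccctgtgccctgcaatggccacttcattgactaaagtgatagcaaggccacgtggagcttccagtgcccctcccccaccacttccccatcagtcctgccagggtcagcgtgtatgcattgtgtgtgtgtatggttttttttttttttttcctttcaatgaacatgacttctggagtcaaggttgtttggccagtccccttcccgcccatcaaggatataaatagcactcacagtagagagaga

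With position -1 the last base before the RefSeq start, the Fabp6 matches lay at -222 to -210 and at -142 to -130, each with 2 mismatches, and the Slc10a2 match lay at -224 to -212 with 1 mismatch. Of 32851 promoter windows of the same 250 bases, 0.959% held an IR-1 match and 1.24% an HNF1 match. Nr1h4 held an HNF1 match with 2 mismatches at -40 to -28, in a window inside the longer GENCODE gene model. The hexamer AGGTCA, which is part of IR-1 and of the LRH-1 motif, was found without a mismatch before Slc51a, Slc51b and Nr1h4 and in 14.0% of all windows. The LRH-1 motif (TCAAGGTCA, at most 1 mismatch) was in none of the 6 windows and in 6.35% of all. These are matches of letters in a short window only.

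Before the levels are read, the tissue labels were checked against genes of the proximal and the distal small intestine. Slc40a1 (ferroportin, the iron exporter of the duodenum) had a median of 716.8 CPM in sham duodenum, 3.15 in sham jejunum and 1.9 in sham ileum. Within the duodenum it was not even, at 25.2 CPM in RYGB replicate 1 and 26.9 in sham replicate 4 against 349.7 to 2468.1 in the others. Sham replicate 4 also had the highest duodenal Cubn (366.8 CPM against 6.1 to 30.9 in the other sham libraries) and Lct (4681.5), and sham replicate 1 the highest duodenal Pyy (10.5 CPM, within the ileal range). Pyy (peptide YY, of distal endocrine cells) reached 4.3 to 13.8 CPM in the libraries labelled ileum and 0.8 to 2.3 in those labelled jejunum, and Nts (neurotensin) had medians of 139.3 and 94.6 CPM in sham ileum and sham jejunum. Gata4, a transcription factor known for its absence from the distal ileum, was nevertheless at 105 to 183.2 CPM in the libraries labelled ileum, beside 122 to 239.1 in the jejunum, and Lct (lactase) at 3032.5 to 6703.6 beside 1447.9 to 5394.5. Fabp6, itself one of the most abundant mRNAs of the distal ileum, did not exceed 50.5 CPM. The libraries labelled ileum thus carried genes of both ends of the intestine, and no gene level says how far from the caecum they were taken.

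**Figure D1:**
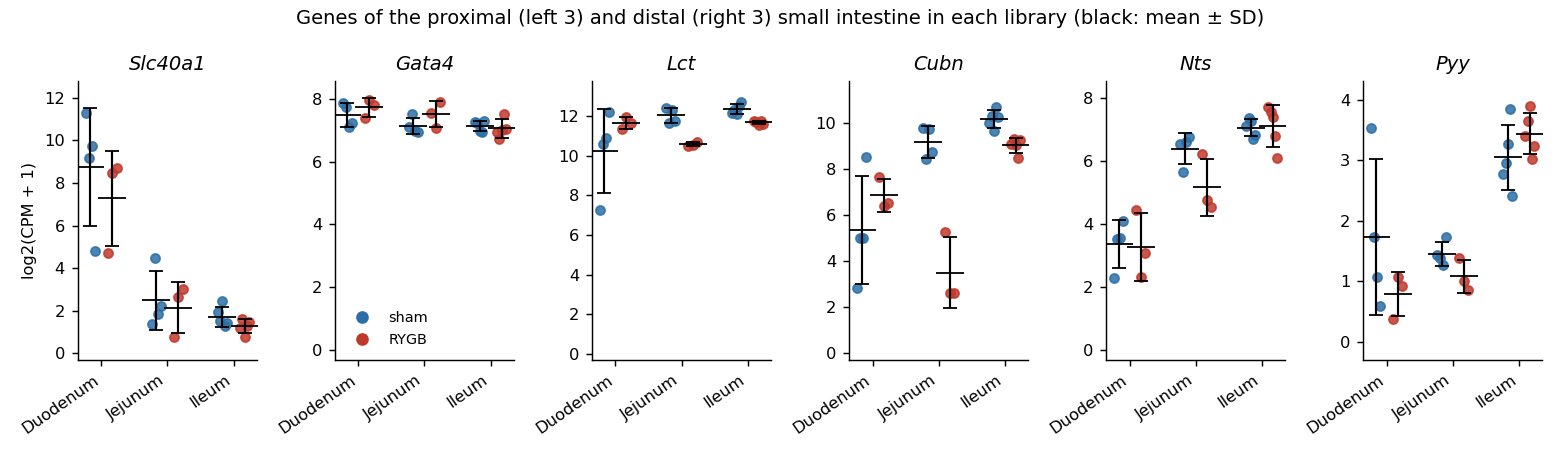
Level of 6 genes that mark the proximal (Slc40a1, Gata4, Lct) or distal (Cubn, Nts, Pyy) small intestine, as log2(CPM + 1) on the vertical axis, in each duodenal, jejunal and ileal library. Points are libraries (blue, sham, and red, RYGB) and black lines are the mean with its SD. Pyy separates the ileum from the jejunum, whereas Gata4 is at 105 to 239.1 CPM in both.

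Levels of the 7 genes were first set side by side, per kilobase of merged exons, since only then can genes be compared within a tissue. In sham ileum the order by mean was Slc51b (160 CPM per kb), Slc51a (121), Fabp6 (15.3), Nr1h4 (8.64), Fgf15 (4.44), Nr0b2 (1.47) and Slc10a2 (0.279). In RYGB ileum Slc51b (266) and Slc51a (164) again came before Fabp6 (70.4), followed by Nr1h4 (13.7), Fgf15 (8.64), Nr0b2 (6.59) and Slc10a2 (3.81). The middle of this order is loose, because the SD of Fabp6 over the 5 sham libraries was 135% of its mean and that of Fgf15 was 99.6%, so Fabp6, Nr1h4 and Fgf15 cannot be ranked beyond their spread. The same holds for the last places after RYGB, where the SD of Slc10a2 was 136% of its mean and 1 library (53.7 CPM) carried most of it. The place of Slc51b before Slc51a rests on their merged exon lengths (709 and 3198 bases). In CPM, Slc51a had the higher mean, at 388 against 113 in sham ileum and 525 against 189 in RYGB ileum. 

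Slc51a had means of 271 CPM in sham duodenum (SD 188, n = 4), 243 in sham jejunum (SD 16.9, n = 4) and 388 in sham ileum (SD 179, n = 5). Slc51b had 87.2 (SD 46.3), 98.0 (SD 22.7) and 113 (SD 29.8) in the same groups, and 1.55 (SD 0.436, n = 4) in sham liver. Because the tables were normalized separately, these levels between tissues are a description, and the spreads of neighbouring segments overlap for both genes. Nr1h4 was highest in the liver, at 158 CPM (SD 19.9) in sham mice against 46.4 (SD 19.9) in sham duodenum, 20.5 (SD 6.66) in sham jejunum and 19.9 (SD 2.58) in sham ileum. Nr0b2 ran from 20.6 CPM (SD 10.2) in sham liver and 14.5 (SD 2.10) in sham duodenum to 6.48 (SD 3.64) in sham jejunum and 1.66 (SD 1.24) in sham ileum. Slc10a2 was at 18.6 CPM (SD 8.30) in sham liver, above 0.700 (SD 0.408) in sham jejunum and 1.16 (SD 0.945) in sham ileum, where the last pair overlapped.

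**Figure D2:**
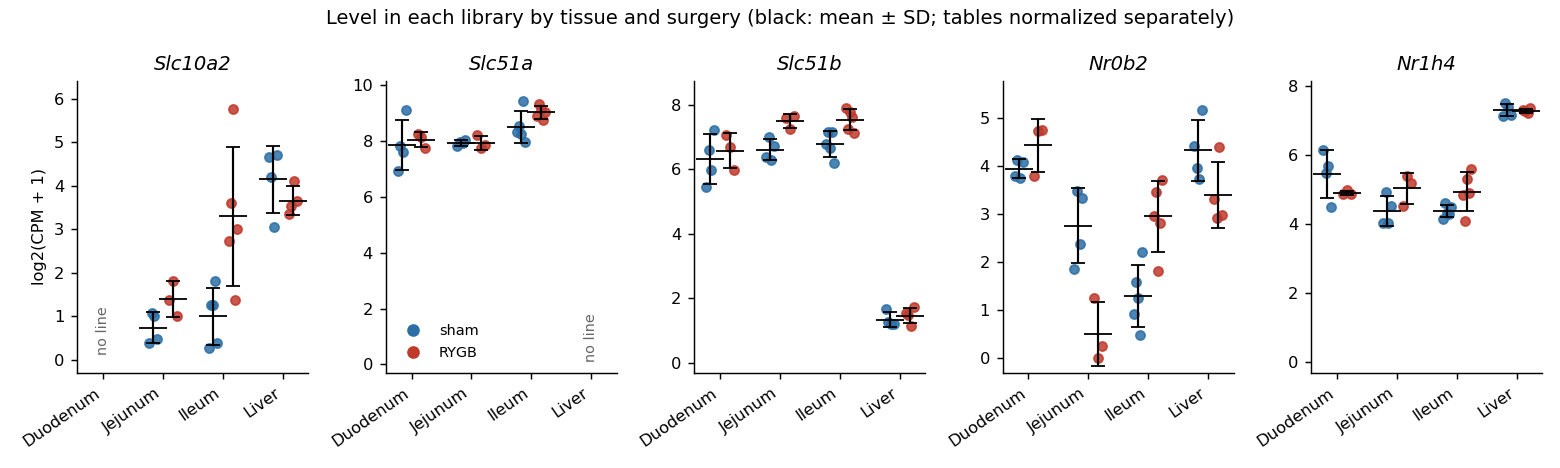
Level of the 5 genes with values in more than one tissue, as log2(CPM + 1) on the vertical axis, by tissue and surgery. Points are libraries (blue, sham, and red, RYGB), black lines are the mean with its SD, and "no line" marks a table without the gene. Nr0b2 lies lower after RYGB in the jejunum (0 to 1.4 against 2.6 to 10.1 CPM) and higher in the ileum (2.5 to 12.1 against 0.4 to 3.6 CPM).

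The comparison of RYGB with sham was made within each tissue by limma on log2(CPM + 1), with Benjamini-Hochberg adjustment over all genes tested in the tissue. A gene was called when its adjusted p was under 0.05 and its fold change at least 1.5. In bulk RNA of villi, fewer cells that make a transcript and less of it in each cell cannot be told apart.

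In the ileum 3 of the 7 genes were called, namely Slc10a2, Slc51b and Nr0b2, all higher after RYGB, and all 7 log2 fold changes were above 0, with a median of 1.45 against -0.09 over all ileal genes. Among all ileal genes the share called was 6.05%, with 1.64% called higher and 4.42% lower. None of the 7 had every RYGB library above every sham library, which held for 2.42% of all genes. The 3 calls stood close to the threshold, as given for each below.

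Slc10a2, the apical transporter by which bile acids enter, was at 5.6, 11.1, 53.7, 1.6 and 7.1 CPM in the RYGB libraries (replicates 1 to 5) and at 0.2, 1.4, 1.4, 2.5 and 0.3 CPM in the sham libraries. RYGB replicate 3 was far above the others, and RYGB replicate 4 lay within the sham range. Slc10a2 was higher by a log2 fold change of 2.30 (SE 0.64, 95% interval 0.91 to 3.70, adjusted p = 0.0474 by limma), and the exact permutation test of the libraries gave p = 0.0159. The call was lost without any one of RYGB replicates 1, 2 and 5 or of sham replicates 1 to 5 (adjusted p 0.0561 to 0.110), with median-ratio scaling (0.0529) and with the replicate number as a block (0.0555), while the log2 fold change stayed between 1.68 and 2.78 without any one library.

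Fabp6, the cytosolic carrier, was at 41.5, 50.5, 47.4, 0.1 and 29 CPM after RYGB and at 0, 11.2, 2.5, 22.9 and 0 CPM after sham surgery. The other RYGB libraries than replicate 4 thus lay above the highest sham library, and replicate 4 stood beside the 2 sham libraries listed at 0. The difference in log2 was 2.35 (SE 1.15, 95% interval -0.16 to 4.85, adjusted p = 0.216) and did not pass the test. Without RYGB replicate 4 it was 3.40 with an adjusted p of 0.0368. The same replicate had the lowest Slc10a2 of its group, and also the highest Gata4 (183.2 CPM) and Fabp1 (8461.7) and the lowest Cubn (353.8), Amn (125) and Pyy (7.1). It was at neither end of the group for Nts (110.4 CPM, against 67.2 in replicate 5), Lct (3406, against 3423.3 in replicate 1) and Slc40a1 (1.4, in a range of 0.7 to 2.1). Whether its position along the gut had a part in its Fabp6 was not tested.

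Slc51a and Slc51b encode the subunits of the exporter. Slc51b was at 238.3, 152.4, 219.8, 194.6 and 139.2 CPM after RYGB and at 109.5, 141.5, 100.2, 143.3 and 72.5 CPM after sham surgery, so that only RYGB replicate 5 fell below the highest sham libraries. It was higher after RYGB by a log2 fold change of 0.74 (SE 0.20, 95% interval 0.30 to 1.19, adjusted p = 0.0457). The call was lost without any one of RYGB replicates 1 to 4 or of sham replicates 1, 3 and 5 (adjusted p 0.0647 to 0.105) and with median-ratio scaling (0.0549, log2 fold change 0.85). Slc51a was at 473.2, 643.6, 559.8, 426.8 and 520.9 CPM after RYGB and at 319.1, 367.7, 307.1, 698.4 and 247.2 CPM after sham surgery, where replicate 4 exceeded every RYGB library. Its log2 fold change of 0.52 (SE 0.24, adjusted p = 0.183) did not pass, and without sham replicate 4 it was 0.76 with an adjusted p of 0.0247.

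Nr1h4 (FXR) was at 27.6, 15.9, 38.3, 29.2 and 47.1 CPM after RYGB and at 16.9, 23.5, 19.2, 18.5 and 21.4 CPM after sham surgery. RYGB replicate 2 was the lowest of all 10 libraries and the other RYGB libraries were above every sham library. Its log2 fold change was 0.57 (SE 0.24, adjusted p = 0.150), and without RYGB replicate 2 it was 0.78 with an adjusted p of 0.0394.

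Nr0b2, the repressor SHP, was at 6.8, 9.9, 2.5, 6 and 12.1 CPM after RYGB and at 0.9, 2, 1.4, 0.4 and 3.6 CPM after sham surgery. The groups overlapped only through RYGB replicate 3 and sham replicate 5. Nr0b2 was higher by a log2 fold change of 1.65 (SE 0.37, 95% interval 0.84 to 2.47, adjusted p = 0.0235), and the exact permutation p was 0.0159. The call was lost without any one of RYGB replicate 2 and sham replicates 1, 3 and 4 (adjusted p 0.0516 to 0.0623), with a log2 fold change between 1.45 and 1.94 without any one library.

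Fgf15, the hormone, was at 9.1, 41.6, 33.1, 23.3 and 25 CPM after RYGB and at 7.1, 31.4, 24.5, 4.1 and 0.8 CPM after sham surgery. RYGB replicate 2 was the highest library and sham replicate 2 was above 3 of the RYGB libraries, so the groups overlapped widely. The log2 fold change of 1.45 (SE 0.69, 95% interval -0.06 to 2.96, adjusted p = 0.206) did not pass the test. It was 0.86 without sham replicate 5, the lowest library, and at most 1.91 without any one other library, and it passed in none of these fits.

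**Figure D3:**
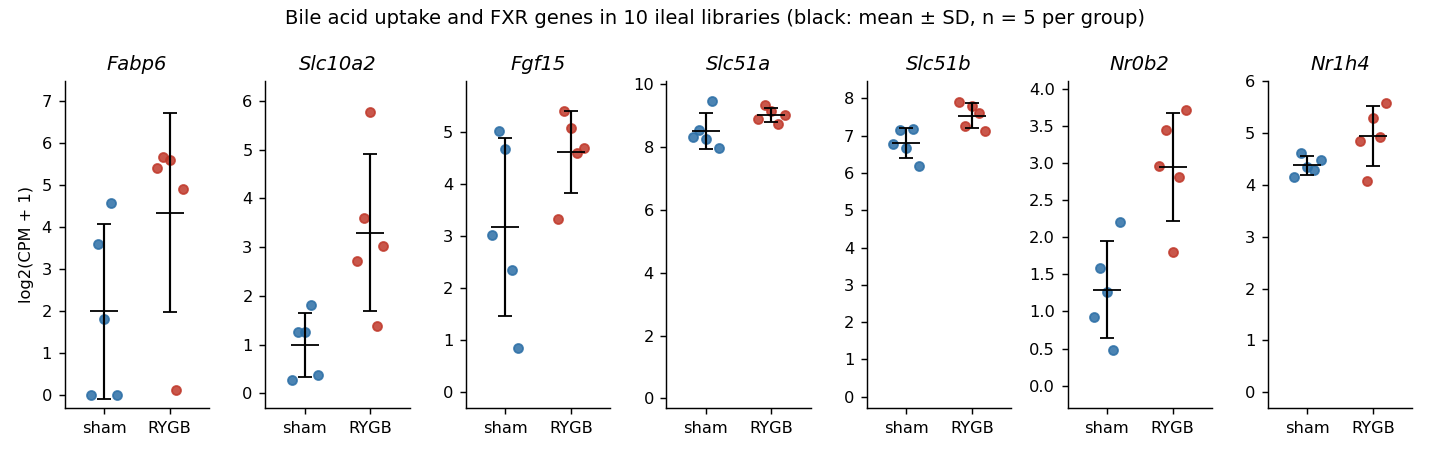
Level of the 7 genes in each of the 10 ileal libraries, as log2(CPM + 1) on the vertical axis, sham in blue and RYGB in red, with the mean and SD in black (n = 5 per group). The means are higher after RYGB for all 7 genes, and the groups overlap for each of them.

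Other cell types were looked at beside these values. The 10 enterocyte genes, among them Vil1, Alpi and Fabp2, were all listed in the ileum and 0 of them was called, with a summed level of 73979 to 100757 CPM after RYGB and 70875 to 93382 after sham surgery. They did not move together. The log2 fold changes were 0.64 for Sis, 0.60 for Fabp2, 0.58 for Slc5a1 (adjusted p = 0.0547), 0.42 for Apoa4 and 0.04 for Krt20. Anpep was at -0.51, and Apob, Alpi, Treh and Vil1 lay between -0.31 and -0.11. Of 5 T cell genes 3 were listed (Cd3e, Cd8a and Trac), and their sum was 3.3 to 11.4 CPM after RYGB and 16.6 to 40.5 after sham surgery, with Cd3e and Cd8a lower. Of the 4 proximal genes tested, Fabp1 was called higher (log2 fold change 1.25) and Lct lower (-0.68), and of the 5 distal genes Cubn (cubilin) was called lower (-1.16). The proximal genes that were not called were at -0.08 (Gata4) and -0.45 (Slc40a1). The distal genes that were not called were at 0.39 (Pyy), 0.29 (Gcg), 0.05 (Nts) and -0.17 (Amn), so the distal genes did not move together. Of 5 smooth muscle genes none was listed in any intestinal table. Spink4 of the goblet cell list (0.75, adjusted p = 0.0421) and Cd14 of the macrophage list (1.03, adjusted p = 0.0316) were called higher, as log2 fold changes. The other tested genes of these lists were not called. They were at -1.53 (Clca1), -0.10 (Fcgbp), 0.06 (Tff3) and 0.08 (Muc2) for goblet cells, and at -0.10 (Csf1r) and 0.12 (Lyz2) for macrophages. The part of these differences in the values of the bile acid genes was not tested.

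Within the surgery groups, no correlation of Fgf15 with another of the genes passed the test. After the group means of log2(CPM + 1) were subtracted, its Pearson r over the 10 ileal libraries was 0.30 with Slc10a2, 0.25 with Fabp6, 0.24 with Slc51b, 0.15 with Slc51a, -0.02 with Nr1h4 and -0.13 with Nr0b2. The Spearman rho ran from -0.03 (Slc51b and Nr0b2) to 0.44 (Slc10a2). The exact permutation p within groups was at least 0.266 for r and 0.209 for rho, and after adjustment over the 6 pairs 0.936 for every r and at least 0.830 for rho. Without sham replicates 4 and 5, the libraries farthest from the median of Fgf15, r lay between -0.22 (Slc51b) and 0.56 (Slc51a). For the other pairs, as a description with no test, r was highest between Fabp6 and Slc10a2 (0.73) and between Fabp6 and Slc51a (0.72) and lowest between Slc51b and Nr0b2 (-0.72).

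Among the 6937 ileal genes whose mean reached 10 CPM, the pattern over the 10 libraries most like that of Slc10a2 belonged to Lpcat4 (r = 0.96), Gclc (0.96) and Foxa1 (0.92). For Nr0b2 they were Pxmp4 (0.97), Rbks (0.97) and Hadha (0.97). Fabp6 was most like Slc5a6 (0.88), Gpr133 (0.88) and Cdhr5 (0.86), with Slc51a in place 15 (0.80). Slc51a was most like Nucb1 (0.95), Sdc1 (0.93) and Npl (0.91), Slc51b like Ermp1 (0.91), Galnt3 (0.91) and Bzw1 (0.91), and Nr1h4 like Mat2a (0.88), Ubxn4 (0.87) and Pak1 (0.87). Slc10a2 and Nr0b2 averaged under 10 CPM and were not ranked, and none of the other 5 was among the first 3 of another. These r include the difference between the surgery groups and, as the points share 1 table, its scaling. The first 3 were also picked as the highest of 6937 over only 10 libraries. How high r reaches by such a choice alone was not tested.

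In the jejunum 2 of the 5 genes were called, Slc51b higher and Nr0b2 lower, against 9.75% of all jejunal genes called (4.62% higher and 5.13% lower). The median log2 fold change of the 5 was 0.66 and that of all genes -0.04. Slc51b was at 191.7, 150.2 and 201.9 CPM after RYGB and at 82.9, 126.5, 76.9 and 105.6 CPM after sham surgery. All RYGB libraries were above all sham libraries, as in 9.75% of all genes. The log2 fold change was 0.90 (SE 0.21, 95% interval 0.43 to 1.36, adjusted p = 0.0266), and the exact permutation p was 0.0571, where 3 against 4 libraries cannot give less than 0.0286. The call was lost without any one of RYGB replicates 1 and 3 and sham replicates 1 and 3 (adjusted p 0.0662 to 0.0749).

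Slc51a, its partner, was at 295.9, 213.2 and 231.8 CPM after RYGB and at 223.2, 246.3, 240.2 and 264.2 CPM after sham surgery. The log2 fold change was 0.01 (SE 0.17, 95% interval -0.36 to 0.38, adjusted p = 0.983). The ratio of Slc51a to Slc51b within a library, which no scaling between libraries can move, was 1.54, 1.42 and 1.15 after RYGB and 2.69, 1.95, 3.12 and 2.50 after sham surgery. On the log2 scale Slc51b over Slc51a was thus 0.90 higher after RYGB (exact permutation p = 0.0286, the smallest that 3 against 4 can give, and 0.0857 after adjustment over the 3 intestinal segments). In the ileum the ratio of Slc51a to Slc51b ran from 1.99 to 4.22 after RYGB and from 2.60 to 4.87 after sham surgery (difference of Slc51b over Slc51a 0.23, adjusted p = 0.631 by the exact permutation test), and in the duodenum from 2.27 to 3.43 and from 2.35 to 3.68.

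Nr0b2 was at 1.4, 0 and 0.2 CPM in the jejunum after RYGB, against 2.6, 10.1, 4.2 and 9 CPM after sham surgery. All RYGB libraries were below all sham libraries, as in 12.5% of all genes. The log2 fold change was -2.25 (SE 0.43, 95% interval -3.21 to -1.28, adjusted p = 0.0122), and the exact permutation p was 0.0286. It was -1.99 without RYGB replicate 2, the library of the other lane and the one listed at 0, with an adjusted p of 0.0526, and the same with lane as a factor (adjusted p = 0.0528), so the call was lost in both cases. The estimates for Nr0b2 hence had opposite signs, at -2.25 in the jejunum and 1.65 in the ileum. The difference of 3.90 was tested, after the values were seen, by permuting the surgery labels within each tissue (exact permutation p = 0.00034, 0.0017 after adjustment over the 5 genes with values in both). That permutation assumes no surgery effect in either tissue, and it tests the size of the difference, not the opposite signs. For Slc10a2, Slc51a, Slc51b and Nr1h4 the adjusted p of this difference was 0.250 to 0.862.

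Slc10a2 was at 1.6, 2.5 and 1 CPM in the jejunum after RYGB and at 0.3, 1.1, 1 and 0.4 CPM after sham surgery, which is near the limit of the table (log2 fold change 0.66, adjusted p = 0.159). Nr1h4 was at 22, 40.8 and 35.8 CPM after RYGB and at 15.3, 29.3, 15.4 and 22.1 CPM after sham surgery (log2 fold change 0.66, SE 0.29, adjusted p = 0.187). Neither passed the test. Markers of other cells differed between the same libraries. The 4 listed T cell genes summed to 5.6 to 11.5 CPM after RYGB and 26.9 to 39.5 after sham surgery. Cd3e, Cd3d and Cd8a were called lower (log2 fold changes -1.58, -1.11 and -1.88), and Trac was not called (-0.67). The 3 listed Paneth cell genes summed to 73.4 to 156.7 and 26.2 to 54.4 CPM, with Lyz1 and Mmp7 called higher and Itln1 at a log2 fold change of 0.11. Spink4 of the goblet cell list (adjusted p = 0.0193) and Cd14 of the macrophage list (0.00492) were called higher, and Ighm of the B and plasma cell list (0.0383) lower. Krt19 of the cholangiocyte list was called higher too (0.0175). The 5 genes of that list summed to 1372.2 to 2149.2 CPM in sham jejunum, and its 3 genes listed in the liver to 5.4 to 10.7 CPM in sham liver. Krt19 is therefore not read here as a sign of cholangiocytes. No other tested gene of these lists was called, and Ighm was the only gene tested of its list. The 10 enterocyte genes did not move together. Apoa4 (-1.47, from a mean of 40878 to 15425 CPM) and Treh (-0.89) were called lower. Not called were Fabp2 (-1.08), Alpi (-0.94), Apob (-0.81), Anpep (-0.34), Vil1 (0.21), Sis (0.38), Krt20 (0.64) and Slc5a1 (0.66). All RYGB libraries were above all sham libraries for Vil1, Slc5a1 and Krt20, as in 9.75% of all genes. For Alpi, Apoa4 and Treh all were below, as in 12.5% of all genes. The sum of the 10 enterocyte genes, of which Apoa4 and Apob (14867 to 8256 CPM) were large parts, was 55884 to 79430 CPM after RYGB and 90163 to 103002 after sham surgery. Cubn, one of the 5 distal genes, fell by 5.69 on the log2 scale, to 5 to 37.8 CPM from 342.2 to 893.3. The other distal genes were not called, at log2 fold changes of -1.23 (Nts, adjusted p = 0.0865), -0.70 (Amn), -0.37 (Pyy) and 0.16 (Gcg). Of the 4 proximal genes tested only Lct was called, with a log2 fold change of -1.45. Their part in the change of Nr0b2 and Slc51b was not tested.

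In the duodenum, which food bypasses after RYGB, none of the 4 genes was called, beside 0.00922% of all duodenal genes (1 of 10850, with 2040 genes at an unadjusted p under 0.05). Nr0b2 was at 12.9, 25.5 and 25.8 CPM after RYGB and at 12.9, 16.5, 12.4 and 16 CPM after sham surgery (log2 fold change 0.48, SE 0.25, adjusted p = 0.332). Nr1h4 was at 28.2, 30.5 and 28.1 CPM after RYGB and at 69.9, 43.4, 50.6 and 21.8 CPM after sham surgery. Only sham replicate 4 was below the RYGB libraries, the log2 fold change was -0.55 (SE 0.33, adjusted p = 0.397), and without that replicate it was -0.87 with an adjusted p of 0.0361. This is the library with low Slc40a1 and high Cubn described above, and without it 757 duodenal genes were called in place of 1. Slc51a was at 303.3, 283 and 213.8 CPM after RYGB and at 119.9, 225, 194.1 and 546 CPM after sham surgery, and Slc51b at 133.5, 102.4 and 62.3 and at 42.4, 95.9, 62.2 and 148.3 CPM. Both were within the sham range (log2 fold changes 0.19 and 0.27, adjusted p = 0.851 and 0.762). The 3 tested crypt and dividing cell genes, Olfm4 (2.35), Mki67 (1.67) and Top2a (1.64), were not called. All RYGB libraries were above all sham libraries for each, as in 12.7% of all duodenal genes. Cela1, a pancreatic acinar gene, ran from 5.9 to 517.5 CPM after RYGB and from 7.1 to 4817.2 after sham surgery. Their part in the duodenal values was not tested. Over all genes the median change in log2 stood at 0.12 in the duodenum and 0.13 in the liver, and at 0.00445 and -0.0105 after median-ratio scaling.

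In the liver, where FXR is most abundant and where Fgf15 acts, none of the 4 genes was called, beside 7.08% of all liver genes (5.79% higher and 1.29% lower). Nr1h4 was at 156.7, 155, 146.5 and 162.5 CPM after RYGB and at 139.5, 180.6, 167.9 and 142.6 CPM after sham surgery (log2 fold change -0.02, 95% interval -0.26 to 0.23). Nr0b2 was at 8.9, 6.5, 19.9 and 6.9 CPM after RYGB and at 20.4, 14.6, 12.2 and 35 CPM after sham surgery, so that only RYGB replicate 3 lay within the sham range. Its log2 fold change was -0.92 (SE 0.36, 95% interval -1.72 to -0.13, adjusted p = 0.129). Slc10a2 was at 9.2, 10.6, 16.3 and 11.5 CPM after RYGB and at 24.3, 17.3, 7.3 and 25.3 CPM after sham surgery. Sham replicate 3 was the lowest library (log2 fold change -0.50, adjusted p = 0.351), and without it the log2 fold change was -0.86 with an adjusted p of 0.0346. Slc51b was at 1.9, 1.8, 1.2 and 2.3 CPM after RYGB and at 2.2, 1.4, 1.3 and 1.3 CPM after sham surgery (log2 fold change 0.13, adjusted p = 0.660).

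**Figure D4:**
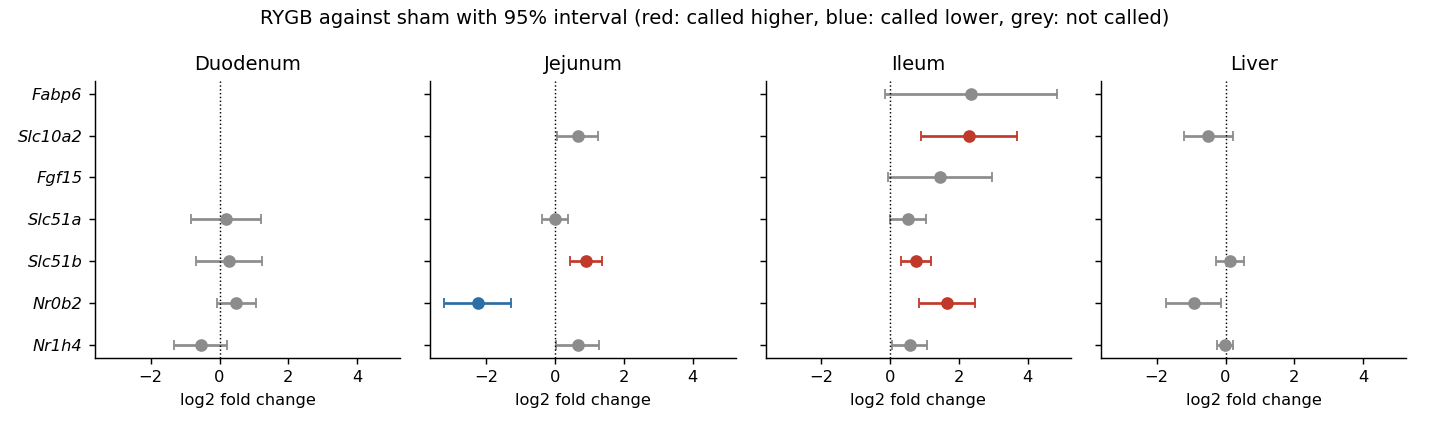
Log2 fold change of RYGB against sham (horizontal axis) for the 7 genes in the 4 tissues, with the 95% interval of the limma fit as bars. Red points were called higher, blue lower, grey points were not called, and a missing point is a gene without a line. The calls are Slc10a2, Slc51b and Nr0b2 in the ileum and Slc51b and Nr0b2 in the jejunum, with Nr0b2 on opposite sides of 0.

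The genes around this pathway were described with 3 further lists, whose counts stand beside the shares of all genes called, 6.05% in the ileum, 9.75% in the jejunum and 7.08% in the liver. Of the 16 genes for partners of FXR, the receptor of FGF15 and regulators of ileal genes, 13 were tested in the ileum and 0 was called, among them Hnf4g, a transcription factor of enterocytes, at 387 CPM (SD 130) after RYGB and 574 (SD 52.7) after sham surgery (adjusted p = 0.0918). In the jejunum 2 of 12 were called, both lower, against 9.75% of all genes called and 5.13% called lower. Hnf4g had a log2 fold change of -0.78 (adjusted p = 0.0454), and Ppara, the fatty acid receptor, of -1.02 (adjusted p = 0.0359).

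Of the 12 other bile acid and sterol transporters 5 were tested in the ileum and 1 was called, against 6.05% of all genes called and 1.64% called higher. Abcc3, a basolateral exporter of organic anions that accepts conjugated bile acids, was at 325.7, 261.6, 173.8, 290.6 and 138.3 CPM after RYGB and at 63.6, 136.8, 100.9, 54.9 and 173.8 CPM after sham surgery (log2 fold change 1.22, SE 0.33, adjusted p = 0.0423). It was called higher in the jejunum as well, at 292, 284.6 and 514.1 CPM against 109, 254.7, 132.1 and 158.4 CPM (log2 fold change 1.17, adjusted p = 0.0413). In the jejunum Abcg5 and Abcg8, the subunits of the sterol exporter, were called lower, by log2 fold changes of -0.99 (adjusted p = 0.0182) and -1.25 (adjusted p = 0.00642). All jejunal RYGB libraries were below all sham libraries for both, as in 12.5% of all jejunal genes. In the ileum their log2 fold changes were -0.08 and -0.31, and neither was called.

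Of the 12 genes of bile acid synthesis and conjugation 6 were tested in the ileum, and Cyp27a1, the mitochondrial sterol 27-hydroxylase, was called lower there, at 34.3 CPM (SD 11.2) after RYGB and 90.2 (SD 39.6) after sham surgery (log2 fold change -1.31, adjusted p = 0.0250). In the liver 1 of 12 was called, a share near the 7.08% of all genes called. Cyp7b1, an oxysterol hydroxylase of the alternative pathway, was at 179.5, 143.8, 160.9 and 181.6 CPM after RYGB and at 453.5, 467.5, 302.1 and 279.6 CPM after sham surgery (log2 fold change -1.14, adjusted p = 0.00666). Cyp7a1, the rate-limiting enzyme of bile acid synthesis and the main target of FGF15 signalling, was at 564.8, 494, 335.8 and 566.1 CPM after RYGB and at 249.2, 563.8, 186.6 and 202.8 CPM after sham surgery. Sham replicate 2 was as high as the RYGB libraries, and the log2 fold change of 0.83 (SE 0.31, adjusted p = 0.121) did not pass the test. Cyp8b1 had a log2 fold change of -0.14 (adjusted p = 0.711).

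The receptor side in the liver showed no call. Fgfr4, the receptor of FGF15, was at 45.6 CPM (SD 2.16) after RYGB and 45.2 (SD 2.93) after sham surgery, and Klb (beta-klotho), its co-receptor, at 36.9 (SD 9.58) and 26.5 (SD 4.79), with a log2 fold change of 0.44 (adjusted p = 0.143). Among the 12 transporters of the liver, Slco1a4 (1.96, adjusted p = 0.0138) and Abcc4 (1.05, adjusted p = 0.0483) were called higher and Slco1a1 (-1.46, adjusted p = 0.0170) lower, as log2 fold changes. For these 3 genes the groups did not overlap, which held for 13.4% of all liver genes with RYGB above and 3.05% with RYGB below. Abcb11, the bile salt export pump, had a log2 fold change of -0.03, and Slc10a1, the uptake transporter of the sinusoidal membrane, of -0.42 (adjusted p = 0.108). In the same liver libraries 3 of 4 listed macrophage genes (Cd68, Cd14 and Lyz2) were called higher, with a summed level of the 4 of 411 to 1129 CPM after RYGB and 151 to 245 after sham surgery, and of 6 hepatocyte genes Serpina1c was called lower (-0.97). Their part in the changes of the liver genes was not tested.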

How the data were processed

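RNA of 32 libraries from duodenal, jejunal and ileal villi and liver was measured with a stranded mRNA kit, and the submitters' processing notes name HTSeq and the genome build GRCm38 (aligner not given in the sources used here). The authors deposited CPM rounded to 0.1, 1 table per tissue. Lines that repeat a gene (1 for the liver, 298, 359 and 326 for the segments from duodenum to ileum) were counted once, and with them the ileal and jejunal columns as deposited are formally a signal, since they sum past the CPM total. The column of sham replicate 4 in the liver was deposited as a mix, formally a score, because 12 lines lacked a value and held other numbers there. These lines were left out. Fat and muscle tables were not used. Depth is unknown, so no count test was run.

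Groups came from the sample titles. limma 3.58.1 (R 4.3.3, trend) was fitted per tissue on log2(CPM + 1) for all genes of a table that averaged 1 CPM or more, after a check on simulated data. Fold changes are on that scale, which understates low genes. Exact permutation tests (two-sided), correlations and motif searches used Python 3.11.15 with numpy 2.4.6, pandas 2.3.3 and scipy 1.17.1, and plots matplotlib 3.10.9. Named are the 7 genes, called genes of 3 pathway lists (at most 5 in each direction per tissue), Cyp7a1, Cyp8b1, Klb and Fgfr4, and the 3 most alike genes of each in the ileum (for Fgf15 not reported here). Other names were chosen after their values were seen. The genes and lists were chosen with earlier results of these data known. Alternatives were a pseudocount of 0.1, no filter, median-ratio scaling, single libraries left out, a replicate block and lane.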

Additional observations from a re-analysis of the deposited data

Results flagged for a closer look

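Of 31 groups of 4 or 5 libraries, 2 held a value far from the others, where chance gives 1 in 20 (1.55 groups). Fabp6 in ileal RYGB replicate 4 (0.1 CPM against 29 to 50.5 in the others) had a gap of 0.860 of the range of its group on the log2(CPM + 1) scale. Slc51b in liver sham replicate 1 (2.2 CPM against 1.3 to 1.4) had a gap of 0.871, at a level where rounding to 0.1 CPM counts.

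The change of Nr0b2 differed between ileum and jejunum by 3.90 on the log2 scale (exact permutation p = 0.00034 with surgery labels permuted within both tissues, 0.0017 after adjustment over 5 genes). It was higher after RYGB in the ileum (1.65) and lower in the jejunum (-2.25). The permutation assumes no surgery effect in either tissue, and the cause of the difference was not tested.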

How the results depend on the processing

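Same-numbered libraries of the surgery groups had correlations of -0.281 to 0.283 in their deviations from the group means, and no tissue had all over 0.1. With so few libraries and no reference for such values, this does not settle whether replicate numbers pair the libraries. With the replicate block, which in duodenum and jejunum also leaves sham replicate 4 without a partner and so without weight, 268 duodenal genes were called in place of 1, and 960, 580 and 1236 in jejunum, ileum and liver in place of 1058, 650 and 836. Members called under the block were 0, 2, 2 and 0. With lane as a factor 469 jejunal genes and 1 jejunal member were called. Median-ratio scaling left 1 ileal member called in place of 3, and changed the ileal calls from 176 higher and 474 lower to 329 and 372 and the liver calls from 684 and 152 to 437 and 235. It also turned the r of Fgf15 with Nr1h4 from -0.0215 to 0.0738. Leaving out single libraries gave 0 to 757 called genes in duodenum (757 without sham replicate 4), 462 to 1015 in jejunum, 312 to 766 in ileum and 329 to 1204 in liver, and 0 to 1, 1 to 2, 0 to 3 and 0 to 1 called members. The 0 in the ileum came without sham replicate 1 or 3. Log2 fold changes near 0 changed sign in these fits, for Slc51a (-0.13 to 0.60) and Slc51b (-0.0182 to 0.58) in duodenum, Slc51a in jejunum (-0.13 to 0.11) and Nr1h4 in liver (-0.0708 to 0.0526). No other member changed sign under any alternative. With at most 1 mismatch 0 members held IR-1, and with at most 3, tried after the data were seen, 3 did (Fabp6, Slc51a and Slc51b), beside 9.63% of all promoters. The cause of these shifts was not tested. Rounding to 0.1 CPM limits genes under about 1 CPM, such as jejunal Nr0b2 after RYGB.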
